A study of Mus musculus with 2 samples.

Results

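The genes described here are the SOCS family, the suppressors of cytokine signalling: Cish and every gene whose symbol is Socs followed by a number. The family was read from probes that the platform annotation assigns to a single gene. It gave 5 genes on 6 probes, namely Cish, Socs1, Socs2, Socs3 and Socs6, out of 4331 genes measured in this way. The mouse RefSeq gene table lists 8 family genes, and Socs4, Socs5 and Socs7 were not analysed here.

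SOCS proteins are feedback inhibitors of cytokine receptors that signal through JAK kinases and STAT transcription factors. A cytokine activates the kinases, the STATs enter the nucleus, and among the genes they switch on are those of the inhibitors, which then damp the same receptors. Each family protein carries an SH2 domain, which binds phosphotyrosine, and a C-terminal SOCS box, which recruits a ubiquitin ligase. In T cells, CIS (the product of Cish) and SOCS2 are best known as products of STAT5 signalling, SOCS1 as an inhibitor of responses to interferon gamma and to cytokines of the common gamma chain, and SOCS3 as an inhibitor of receptors that use the gp130 chain.

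The material was total RNA of splenic gamma delta T cells from LAT3YF mice and from wildtype mice, each enriched with magnetic beads against CD5 and then sorted by flow cytometry. LAT is a membrane adaptor of T cells that is phosphorylated on tyrosines when the receptor is engaged, and 3YF stands for tyrosines replaced by phenylalanine. The labels limit the allele to no cell type, and they state neither the age of the mice nor how many were used or pooled. Both populations were hybridised together on each of 2 two-colour arrays with the dyes reversed, called the + polarity and the - polarity array. The labels name no separate animals or extracts for the arrays, so the pair is 1 replicate, no difference between LAT3YF and wildtype was tested, and an SD below is the spread of the 2 arrays only.

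Values are log10 ratios of the populations, with the - polarity array multiplied by -1 so that both arrays run the same way. A positive ratio marks one population throughout and a negative ratio the other. The labels give neither the dyes nor the numerator, so which sign is LAT3YF is open and every statement can be read with the populations exchanged. A gene was called when its 2 array ratios averaged 2-fold or more in size (0.301 as log10) with the same sign on both arrays, which is a rule of size and not a test. Folds assume base 10, which is not stated with the values. A ratio within bulk RNA does not tell fewer cells of a type from less RNA per cell, and without intensities the level of a transcript in either population was not analysed here.

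Of the 5 SOCS family genes, 2 were called positive and 0 negative. Across all 4331 genes the same rule called 3.72% positive and 5.03% negative, 8.75% in either direction. The called genes were Cish, 6.52-fold apart between the populations, and Socs1, 2.23-fold apart. Socs2 lay on the same side at a log10 ratio of 0.177, below the threshold, and Socs3 and Socs6 were near 0. The median log10 ratio of the family, which with 5 genes is the value of Socs2, was 0.177, beside 0.00230 over all genes.

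Cish, whose product CIS binds activated cytokine receptors and competes with STAT5, had deposited log10 ratios of 0.837 (+ polarity) and -0.791 (- polarity). Its sign thus changed when the dyes were exchanged. After turning, the arrays gave 6.87-fold and 6.19-fold, with a mean log10 ratio of 0.814 ± 0.032 (SD, 2 arrays). Cish ranked 15th from the top of 4331 genes by the mean. It was 15th by the + polarity array and 16th by the other. Counting both signs, its ratio was the 39th in size.

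Socs1 encodes an inhibitor that blocks the JAK kinases directly through a short kinase inhibitory region. Its deposited ratios were 0.347 (+ polarity) and -0.348 (- polarity), which are 2.22-fold and 2.23-fold. The mean was 0.348 ± 0.00064, and only 0.577% of all genes had a smaller SD between the arrays. By the mean it ranked 124th from the top, so it stood much lower in the list than Cish while its arrays lay closer together. The difference between Cish and Socs1 was 0.490 (+ polarity) and 0.443 (- polarity) on the log10 scale.

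Socs2, whose product restrains growth hormone receptor signalling, was measured by 2 probes. One gave a turned log10 ratio of 0.232 on the + polarity and 0.218 on the - polarity array, a mean of 0.225 ± 0.010 (1.68-fold). The other gave 0.135 and 0.125, a mean of 0.130 ± 0.0066 (1.35-fold). Both probes lay on the positive side on both arrays, and they differed from each other by more than either differed between arrays. The gene's mean was 0.177 ± 0.0083, higher than the mean of 91.3% of genes. This lies just past 1.5-fold (0.176), a threshold at which 8.43% of all genes were called positive.

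Socs3 and Socs6 had the lowest values of the family. Socs3, the main inhibitor of interleukin-6 signalling through gp130, had turned ratios of -0.0824 and -0.0458, a mean of -0.0641 ± 0.026 (1.16-fold). It was the only one of the 5 genes with a mean below 0, and 26.8% of all genes had a lower mean. Socs6, which acts mainly on receptor tyrosine kinases and has no established part in JAK signalling of lymphocytes, had turned ratios of -0.0341 (+ polarity) and 0.0344 (- polarity). Its arrays therefore disagreed in sign, and its mean of 0.00017 ± 0.048 was far smaller than their spread.

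**Figure D1:**
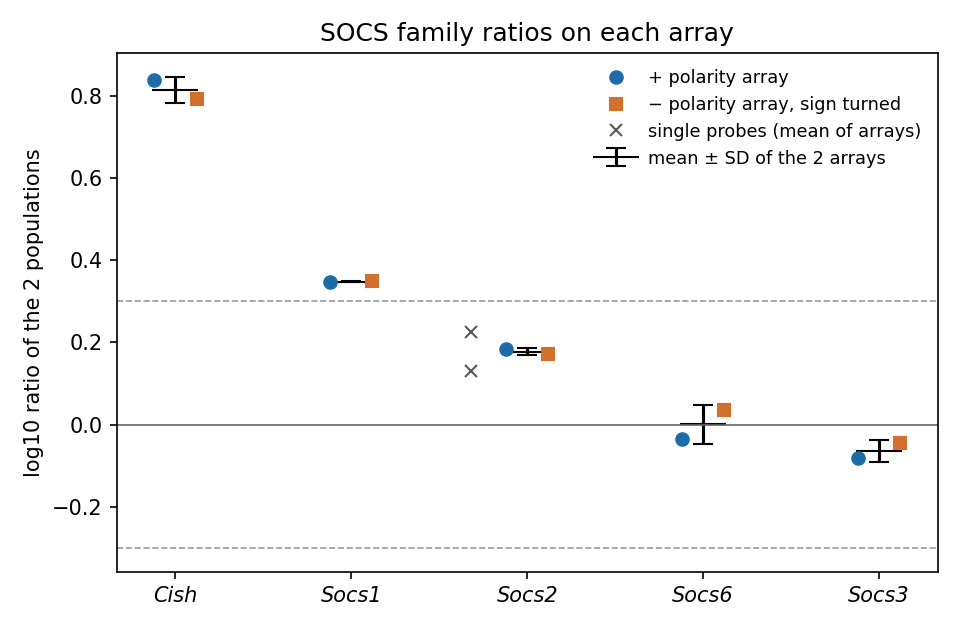
SOCS family genes from the highest to the lowest mean, with the log10 ratio of the 2 populations on the vertical axis. Circles are the + polarity array, squares the - polarity array after turning, bars the mean ± SD of the 2 arrays, crosses the single probes of Socs2, and dashed lines 2-fold. Cish (0.814) and Socs1 (0.348) lie above the upper dashed line on both arrays, Socs2 lies between it and 0, and Socs6 and Socs3 lie around 0.

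The order of the ratios was thus Cish, Socs1, Socs2, Socs6 and Socs3. The difference between neighbours was 14.5 times the larger of their SDs for Cish and Socs1, and 20.4 times for Socs1 and Socs2. It was 3.66 times for Socs2 and Socs6 but only 1.33 times for Socs6 and Socs3, which are the least separated neighbours. With 2 arrays of one comparison these SDs are themselves imprecise, and they hold no spread between animals. The SD of Socs2 also leaves out the gap between its 2 probes, whose means were 0.225 and 0.130. The median SD over all genes was 0.0579, and all 5 family genes had a smaller one.

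Promoter sequences from RefSeq (mouse build GRCm38.p6) are shown for Cish and Socs1, the called genes, and for Socs3, which was not called, because these genes are textbook targets of STAT and interferon regulatory factors. The motifs searched were TTCNNNGAA, the palindromic core bound by STAT dimers, and AANNGAAA, the core bound by interferon regulatory factors, on both strands. Overlapping matches were counted, and no match of one motif overlapped one of the other. Capitals mark matches, and positions count from 1 at the start given in the table, with negative numbers before it. Each run is 80 bases, given 5′ to 3′ along the gene.
Cish: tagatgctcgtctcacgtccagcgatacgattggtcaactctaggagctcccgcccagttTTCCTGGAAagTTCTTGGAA
Socs1: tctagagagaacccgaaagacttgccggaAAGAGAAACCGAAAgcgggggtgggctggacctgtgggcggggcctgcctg
Socs3: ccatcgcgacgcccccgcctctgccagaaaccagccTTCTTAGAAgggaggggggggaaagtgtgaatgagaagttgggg

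The Cish run lies at chr9:107296599-107296678 on the + strand and holds 2 STAT cores, TTCCTGGAA at positions 1 to 9 and TTCTTGGAA at 12 to 20. Of 32851 such windows in the table, each 250 bases before to 50 after a start, 8.30% held at least 1 TTCNNNGAA and 0.457% held 2 or more. The Socs1 run lies at chr16:10785567-10785646 on the - strand and holds 2 matches of the other core that overlap each other, AAGAGAAA from -81 to -74 and AACCGAAA from -75 to -68. This shorter motif is common: at least 1 match on either strand was found in 23.9% of windows and 2 or more in 5.34%. The Cish window also held 1, at positions 35 to 42, outside the run shown. The Socs3 run, at chr11:117969477-117969556 on the - strand, holds 1 STAT core, TTCTTAGAA, from -154 to -146. The STAT core thus stood in the windows of Cish and Socs3, with the highest and lowest ratios of the family, and not in that of Socs1. Windows of Socs2 and Socs6 are not reported here. Matches describe the letters of these windows and not binding in these cells.

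On the plot of all genes by array, genes with equal ratios after turning lie on the diagonal. Cish, Socs1 and Socs2 lay close to it, with a gap between arrays of 0.0454, 0.0009 and 0.0118 on the log10 scale. Technical error shows in 181 of the 4331 genes, whose turned ratios had opposite signs and whose dye-dependent part was past 2-fold. No family gene was among these, but at that share 5 genes would often hold none. Cish and Socs1 were the family genes past 2-fold on the + polarity array, where 5.26% of all genes were positive at that size, and on the - polarity array, where 7.07% were. Both arrays were past it on the positive side for 2.68% of genes. At 3-fold, Cish was the one called family gene, beside 1.11% of genes on the positive side. The assumed base weighs more than the array. Read as natural logs, the values would leave Cish called (2.26-fold, beside 0.508% of genes called positive). Read as log2, they would leave no family gene called (Cish at 1.76-fold, beside 0.231% of genes called positive).

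**Figure D2:**
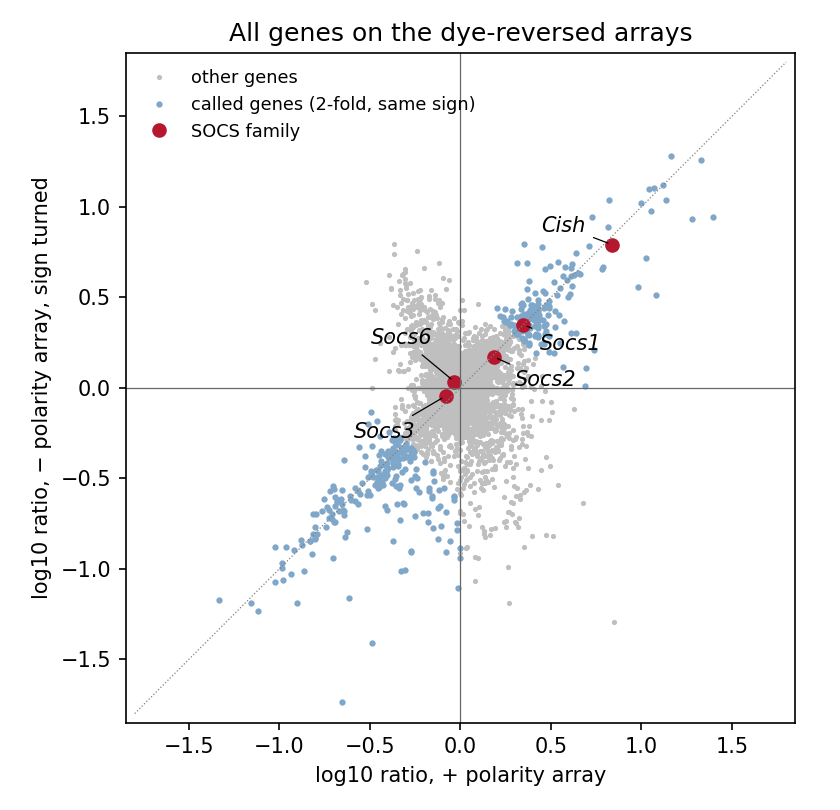
Log10 ratio of each of 4331 genes on the + polarity array (horizontal) and on the - polarity array after turning (vertical), with the SOCS family in red, called genes in blue and the line of equal ratios dotted. Cish and Socs1 lie near the dotted line among the called genes on the positive side, Socs2 lies nearer 0 on the same side, and Socs3 and Socs6 lie within the central cloud.

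The genes nearest to a called family gene were taken as those at the smallest distance over the 2 turned array values. Nearest to Cish were Ccl1, a chemokine gene (mean log10 ratio 0.801, distance 0.0224), Gzmb, which encodes granzyme B (0.854, distance 0.102), and Atg9b, an autophagy gene (0.747, distance 0.127). Nearest to Socs1 were Psat1, an enzyme of serine synthesis (0.344, distance 0.0129), the zinc transporter gene Slc39a6 (0.358, distance 0.0151) and the costimulatory receptor gene Icos (0.340, distance 0.0209). With 2 values per gene, likeness here means only ratios of similar size.

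Among ligands of JAK-coupled receptors, the signals that induce SOCS genes, 4 of 20 measured were called positive and 2 negative, beside 3.72% and 5.03% of all genes. Their median log10 ratio was 0.0951, but 0.127 by the + polarity array and 0.0460 by the other. The positive genes were Il6 (1.22 ± 0.083, 16.7-fold), which signals through gp130, the type 2 cytokine gene Il13 (1.01 ± 0.055), and, barely past the threshold, Il10 (0.310 ± 0.055) and Il7 (0.307 ± 0.10). Il10 was below 2-fold on the + polarity array (0.272) and Il7 on the - polarity array (0.236). The negative genes were Il22 (-0.940 ± 0.11) and Il15 (-0.950 ± 0.65), a STAT5-activating cytokine whose arrays gave -0.491 and -1.41. Not called were Il5 (0.237 ± 0.15), Il21 (0.224 ± 0.29) and Il4 (0.198 ± 0.27), each of which was past 2-fold on one array only. Il5 and Il4 were past it on the + polarity array (0.344 and 0.391, against 0.130 and 0.00553 on the other), and Il21 on the - polarity array (0.430, against 0.0171). Socs3, the inhibitor known for the Il6 receptor, was at -0.0641 in the same RNA in which the Il6 ratio was 16.7-fold. Whether the cells responded to interleukin-6 was not tested.

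Among the receptors, 0 of 30 were called positive and 2 negative, beside 3.72% and 5.03% of all genes. The median of -0.0447 came mainly from the - polarity array (-0.101), since it was -0.00080 by the + polarity array. These were Epor, the erythropoietin receptor gene (-0.604 ± 0.057), and Ifngr1, a chain of the interferon gamma receptor that SOCS1 restrains (-0.380 ± 0.020, 2.40-fold). Ifngr1 and Socs1 therefore lay on opposite sides. The largest ratios below the threshold were those of Il9r (-0.284 ± 0.17), Ifnar2 (-0.250 ± 0.17) and Il10rb (-0.229 ± 0.045). Il9r and Ifnar2 were past 2-fold on the - polarity array alone (-0.406 and -0.372).

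Of the 3 JAK and 6 STAT genes measured, 0 were called, beside 8.75% of all genes. At that share, lists this small would often hold no called gene. All 3 measured kinase genes had means above 0, with Jak3, the kinase of the common gamma chain, at 0.259 ± 0.0082 (1.82-fold), Jak2 at 0.121 ± 0.037 and Tyk2 at 0.0820 ± 0.22. The signs of Tyk2 differed between the arrays. Of 6 STAT genes, 3 had means above 0. The largest in size were Stat5a (0.113 ± 0.027) and Stat5b (0.101 ± 0.081), the factors known to induce Cish, followed by Stat6 (-0.0430 ± 0.0025).

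The other STAT5 targets listed and measured here had lower ratios than Cish and Socs1, and the list does not hold every known target. Of these 8 genes, 0 were called, beside 8.75% of all genes, and 7 had means below 0, with a median of -0.0495. Of these 7, Il2ra (0.123 and -0.376) and Pim3 (-0.123 and 0.0142) had opposite signs on the arrays, and over all genes 51.2% had means above 0. The survival kinase gene Pim1 was at -0.232 ± 0.052 (1.71-fold), the growth regulator Myc at -0.176 ± 0.023 and Bcl2l1, which encodes the survival protein Bcl-xL, at 0.147 ± 0.0049.

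Inhibitors of the pathway outside the SOCS family gave 1 called gene of 11 (8.75% over all genes), with a median of -0.00816. It was Dok2, an adaptor that restrains receptor signalling in lymphocytes, at 0.418 ± 0.021 (2.62-fold), on the side of Cish and Socs1. The phosphatase genes Ptpn11 (0.230 ± 0.13) and Ptpn6 (-0.0977 ± 0.016) and the adaptor gene Sh2b3 (-0.0932 ± 0.31) were not called. Sh2b3 had opposite signs on the arrays (0.123 and -0.309), and Ptpn11 was past 2-fold on the - polarity array alone. Of the 4 measured partners that SOCS boxes work with, 1 was called negative. This was Rnf7, the RING subunit of the cullin 5 ligase, at -0.412 ± 0.0078 (2.58-fold), while Cul5 itself was at -0.0625 ± 0.092, and the ubiquitin-conjugating enzyme genes Ube2l3 and Ube2d3 were at 0.132 ± 0.056 and -0.0732 ± 0.055. Cul5 had opposite signs on the arrays. Among 5 other genes of SOCS box proteins, 0 were called, and the largest in size were Wsb1 (-0.154 ± 0.061), Asb3 (0.111 ± 0.082) and Wsb2 (0.100 ± 0.16), which had opposite signs on the arrays. Over the 8 pathway lists together, 10 of 86 genes were called (11.6%), near the 8.75% of all genes.

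**Figure D3:**
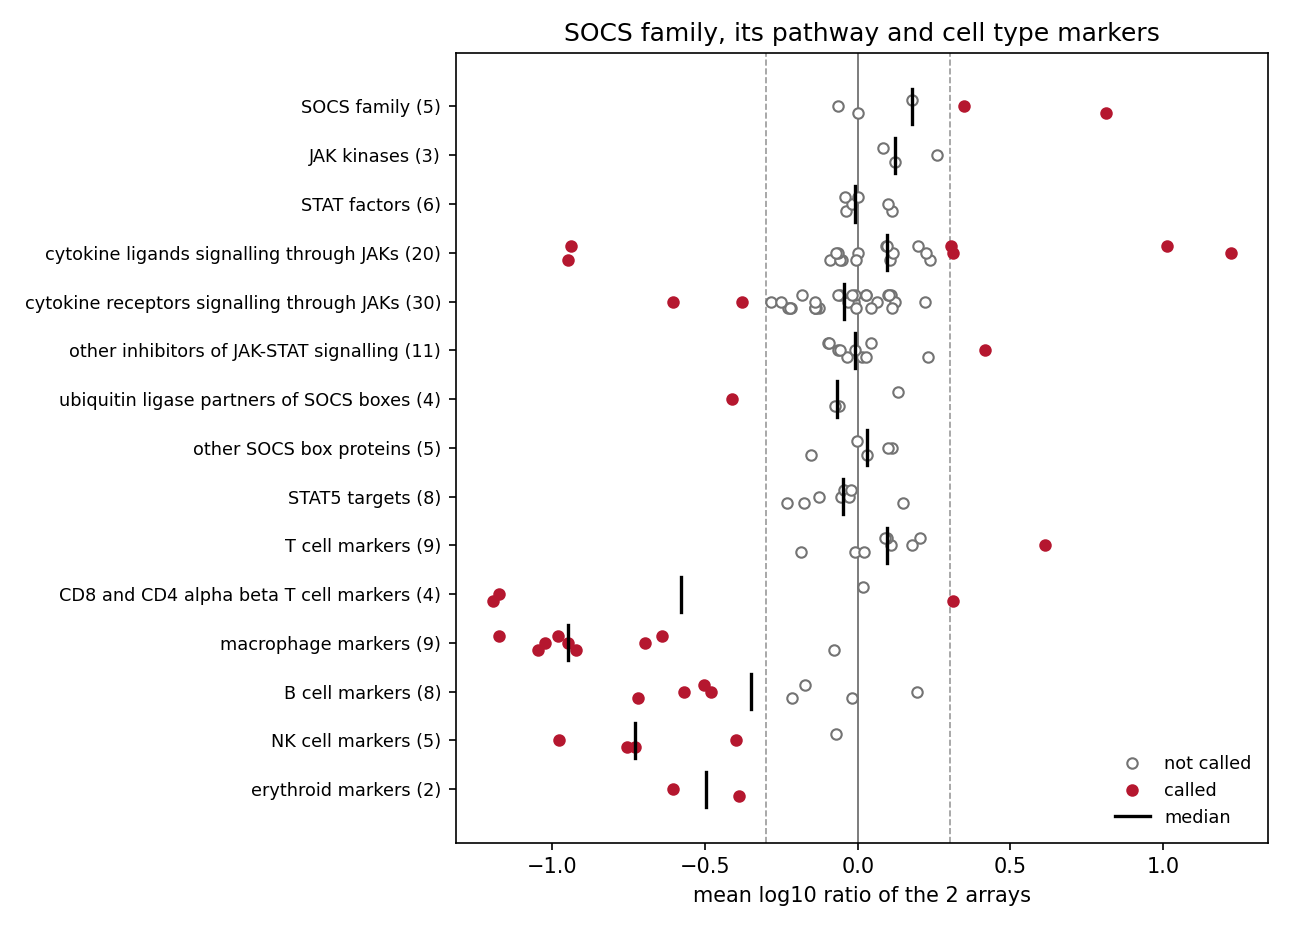
Mean log10 ratio of the 2 arrays for each gene of the SOCS family, the pathway lists and the cell type markers, with the number of measured genes in brackets. Filled points were called, open points were not, black bars are medians and dashed lines mark 2-fold. Cish and Socs1 reach further to the positive side than the listed kinases, STATs, receptors or STAT5 targets. The ligand genes Il6 and Il13 lie beyond Cish. Dok2 among the other inhibitors and Cd5 among the T cell markers lie beyond Socs1. Markers of macrophages, NK cells and B cells lie mostly on the negative side.

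Most genes listed as markers of other spleen cells lay opposite to Cish and Socs1, and the ratios do not show which cells carried them. Of 9 macrophage markers 8 were called negative (median -0.950, from -1.17 to -0.0762), of 5 NK cell markers 4 (median -0.731), of 8 B cell markers 4 (median -0.349, from -0.719 to 0.193), and both erythroid markers, of which Epor is also among the receptors above. Together 18 of 24 were called negative and 0 positive, beside 5.03% and 3.72% of all genes. The lists were chosen with earlier results of these data known, so these counts describe the listed genes and test no shift. The exceptions in sign were the B cell marker Cd22, positive on both arrays (0.193 ± 0.024), and the macrophage marker Mertk and the B cell marker Pax5, whose arrays had opposite signs. Of 9 T cell markers, 1 was called, Cd5 itself (0.614), and their median was 0.0954. Of the 4 markers of CD8 and CD4 alpha beta T cells, the rule called 2 negative and 1 positive, and the median was -0.579. The CD8 chain genes Cd8a (-1.20 ± 0.77, -0.654 and -1.74 on the arrays) and Cd8b1 (-1.18 ± 0.082) lay opposite to Cish and Socs1 and were the 4th and 5th largest ratios of all genes in size. Zbtb7b (0.311 ± 0.075) lay on the side of Cish, and Cd4 was at 0.0177 ± 0.047. Their part in the ratios of the SOCS family was not tested. Ratios do not show whether any of these markers was present at a high or low level, and the constant-region genes that define gamma delta T cells were not analysed here.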

How the data were processed

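The series holds 2 two-colour arrays of LAT3YF and wildtype CD5-positive gamma delta T cell RNA, dye-reversed per the labels. The table the authors deposited gives each probe 1 log ratio on each array, read here as log10. Its log base and numerator, the scanner, the background correction and the normalization are not stated there or in the labels. As deposited, the log10 ratios had medians of -0.00284 and 0.00101. Across probes they correlated negatively, the direction of dye-reversed arrays, but only weakly (Pearson r = -0.301, Spearman -0.154). The - polarity array had the wider spread over probes (SD 0.256, against 0.198 on the + polarity array). Intensities were not analysed here, and the number of arrays limits precision.

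Of 8014 probes, 4654 were assigned to 1 gene by the platform annotation and were used, 73 to several, and 3287 were without a listed gene. All 5 family genes matched the RefSeq table by gene identifier. The - polarity array was turned and probes of a gene were averaged (Python 3.11.15, pandas 2.3.3). The call rule was also run on simulated data with the same noise for every gene and array. These arrays differ in spread, so that run does not give the error of the rule here. Named were every family gene, called list members, up to 3 uncalled members per list, and the 3 genes nearest to each called family gene. Cell type markers were summarised, and the markers and the genes Il2ra and Pim3 that are named were picked with their values known. The family and lists were chosen with earlier results of these data known. A further target list is not reported here. Alternatives covered the threshold, single arrays, centring, scaling, log base, probe summary and probes with several genes.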

Additional observations from a re-analysis of the deposited data

How the results depend on the processing

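The count of 2 called SOCS family genes was unchanged with either array alone, with centred or scaled arrays, with the median over probes, with probes of several genes kept and where each array had to pass 2-fold. It was 3 at 1.5-fold, where Socs2 joined, and 1 (Cish) at 3-fold. The log base mattered most: read as natural logs the values gave 1 called family gene (Cish, 2.26-fold), and read as log2 they gave 0 (Cish 1.76-fold, Socs1 1.27-fold), because every ratio shrinks. The family median, which is the value of Socs2, became 0.0770 and 0.0534 on the log10 scale under these readings. It ranged from 0.171 to 0.183 between single arrays. Genes called in all numbered 379, against 774 at 1.5-fold, 144 at 3-fold, 62 for natural logs and 17 for log2. Single arrays gave between 452 (+ polarity) and 742 (- polarity), and 10 called pathway genes became 21 on the - polarity array alone. No paired analysis was possible because the arrays form 1 pair. Without replicates, signal over background or intensities, a ratio of weak signals could not be told from one of strong signals.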
